A study of Mus musculus with 4 samples.

Results

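Genes of glycolysis and of the transcriptional response to low oxygen were followed in mouse colon tumour cells and in mutant derivatives of them. The members were chosen by name from a fixed list of 39 symbols, and 38 of the 41457 rows of the deposited count table carried such a name. The missing symbol, Aldoa, stands in the table as 2 rows under modified names, which are given separately and enter no count of members. The cells came from a tumour of the colon, were cultured in RPMI medium and were sequenced as 1 control sample and 1 sample each of M8, M32 and M83, which share the genotype label "ENU mutant". ENU, N-ethyl-N-nitrosourea, is an alkylating mutagen that leaves mainly point mutations. The design text speaks of triplicates, but the table holds 1 column per sample, so each column is treated as 1 library and a value of a single line has no replicate check. The labels do not name the cell line, the way the mutants were isolated, the oxygen level of the cultures or whether control and mutants descend from the same culture, so effects of the mutations and of separate culture cannot be told apart.

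The total count was between 25818148 (control) and 28879954 (M8). The summed level of the 12 colon epithelial markers ran from 73.8 (M32) to 180 (M8) CPM (read counts scaled to a common library size, with TMM factors), and was 104 in control and 160 in M83. Of these markers 8 had at most 10 counts in every library, with Epcam and Cdx2 at 0, while Krt20 and Krt18 were expressed. The summed level of the 10 mesenchymal markers lay between 8670 and 10400 CPM, and that of the 10 leukocyte markers between 1.48 and 2.35 CPM, with Ptprc at 0 to 4 counts. Vim led the mesenchymal sum, which hides wider changes of single markers, such as Col3a1 from 1748 counts in control to 12998 in M32. The labelled colon origin therefore rests on the labels, since most defining markers of colon epithelium were near or at 0. In bulk RNA, fewer cells that express a gene and less RNA per cell cannot be told apart.

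Glycolysis splits glucose into pyruvate, and lactate dehydrogenase turns pyruvate into lactate so that the pathway can run on without oxygen. When oxygen falls, prolyl hydroxylases no longer mark the alpha subunit of the hypoxia-inducible factor (HIF) for degradation, and the factor binds short DNA elements with the core ACGTG or GCGTG and activates glucose transporters, glycolytic enzymes, angiogenic factors and mitophagy genes. Tumour cells often keep glycolytic genes high in full oxygen as well, so that high levels alone are no measure of hypoxia.

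The promoters show how widely the HIF core letters occur among these genes. RefSeq promoters (GRCm38.p6) were matched by symbol for 35 of the 39 genes, Aldoa included, and the 250 bases before the start were searched for ACGTG and GCGTG on both strands. A core was present in 31 of 35 (88.6%), against 60.8% of 9882 tested genes with a promoter and 41.5% of all 27025 genes with one. At least 2 cores were present in 23 of 35 (65.7%), against 31.0% of the tested genes. ACGTG alone was found in 21 of 35 (60.0%), against 24.8%. The median number of CG steps was 17 in the members and 17 in the tested genes. CACGTG contains ACGTG on both strands and counts there as 2 matches, and where a gene has several starts the one with most matches was counted. Genes with more starts thus have more chances of a match, and the number of starts was not matched between the sets. The 35 genes include some that were not tested, such as Car9, Adm and Egln3. The list was made of hypoxia-response genes, so a raised share of HIF cores is partly built into the choice. A match is a description of the letters and not a measured binding site. The promoters of 5 genes are shown because they span the expression patterns described below, from abundant enzymes (Ldha, Pgk1) over a gene that differed between lines (Bnip3) to a pair of carbonic anhydrase genes of which one was silent (Car9) and the other most variable (Car12). They are written from 5′ to 3′, with the matched core in capitals:
Ldha, chr7:46845554-46845803, plus strand: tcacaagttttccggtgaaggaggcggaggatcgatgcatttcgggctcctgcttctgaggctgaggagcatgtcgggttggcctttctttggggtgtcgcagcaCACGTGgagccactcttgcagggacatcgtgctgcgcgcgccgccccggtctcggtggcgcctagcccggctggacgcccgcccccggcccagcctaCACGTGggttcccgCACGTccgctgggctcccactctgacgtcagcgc
Pgk1, chrX:106186850-106187099, plus strand: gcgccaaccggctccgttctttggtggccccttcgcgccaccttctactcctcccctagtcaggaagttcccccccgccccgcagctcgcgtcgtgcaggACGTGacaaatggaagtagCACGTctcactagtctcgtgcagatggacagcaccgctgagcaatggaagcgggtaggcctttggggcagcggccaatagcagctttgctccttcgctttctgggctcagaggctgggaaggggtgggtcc
Bnip3, chr7:138909507-138909756, minus strand: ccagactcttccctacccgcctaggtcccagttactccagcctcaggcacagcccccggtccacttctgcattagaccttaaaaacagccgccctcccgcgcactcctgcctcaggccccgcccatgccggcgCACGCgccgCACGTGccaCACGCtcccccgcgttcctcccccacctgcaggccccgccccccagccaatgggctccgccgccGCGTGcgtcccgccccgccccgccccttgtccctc
Car9, chr4:43506776-43507025, plus strand: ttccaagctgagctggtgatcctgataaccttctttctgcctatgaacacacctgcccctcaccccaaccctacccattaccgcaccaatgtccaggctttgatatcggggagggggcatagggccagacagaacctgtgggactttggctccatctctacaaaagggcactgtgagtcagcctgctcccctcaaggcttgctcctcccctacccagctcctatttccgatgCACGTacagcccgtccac
Car12, chr9:66713436-66713685, plus strand: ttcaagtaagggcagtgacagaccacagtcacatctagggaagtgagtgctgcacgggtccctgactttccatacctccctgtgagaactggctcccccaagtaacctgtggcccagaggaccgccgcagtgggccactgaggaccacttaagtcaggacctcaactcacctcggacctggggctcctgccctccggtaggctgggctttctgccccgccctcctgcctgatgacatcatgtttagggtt
Ldha held 5 matches before this one of its starts, of which 4 belong to CACGTG read on both strands. Bnip3 held 5 and Pgk1 2. The silent Car9 held 1, while Car12 held 0 in these 250 bases.

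Most members were expressed. Of the 38 members 33 passed the filter on low counts and were tested, while Slc2a3, Car9, Adm, Egln3 and Epas1 did not pass. Car9, the hypoxia-marker carbonic anhydrase of the cell surface, was counted 0, 2, 0 and 0 times across control, M8, M32 and M83, where a count of 0 allows up to 0.118 CPM in control. Egln3, a prolyl hydroxylase that HIF itself induces, was counted only in M83, 2 times. Adm, the gene of the vasodilator peptide adrenomedullin, had 2, 4, 4 and 5 counts in control, M8, M32 and M83. Slc2a3, a neuronal-type glucose transporter gene, had 4, 2, 2 and 4 counts in the same order, and Epas1, the gene of the second HIF alpha subunit, had 0, 0, 6 and 3. The alpha subunit gene in use was Hif1a, with 146, 97.5, 143 and 161 CPM.

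Paralogues of one function were compared per kilobase of exon, using the coding transcripts of the GENCODE basic set. In several pairs almost all transcripts came from 1 gene. Slc2a1, the basal glucose transporter, supplied at least 99.8% of its pair with Slc2a3 in each library, and Eno1, the ubiquitous enolase, stood at 751, 495, 618 and 636 CPM per kilobase in control, M8, M32 and M83, against 6.79, 6.08, 3.33 and 8.04 for Eno2, the neuronal enolase. A further enolase gene outside the list, Eno3, had 173.8, 119.8, 170.1 and 244.4 CPM (not per kilobase) in the same order. Eno1 and Eno2 are thus not the whole enolase family. Egln1, the main oxygen-sensing prolyl hydroxylase, ran at 36.6, 33.4, 32.5 and 36.6 CPM per kilobase in control, M8, M32 and M83, against at most 0.026 for Egln3. Among the hexokinases, which trap glucose in the cell, neither dominated. Hk1, the housekeeping form, made up 54.6%, 49.0%, 59.5% and 53.3% of the pair across control, M8, M32 and M83. Hk2, the inducible form, held the larger share per length in M8, and in raw counts in M83 as well (54.6% in M8 and 50.3% in M83). Exon lengths are those of the annotation, so shares between genes, and the size of their differences between libraries, are approximate.

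Within the phosphofructokinases, the committed step of glycolysis, the liver-type gene Pfkl prevailed in every library. Per length, Pfkm outweighed Pfkp by a margin that was widest in M8. Pfkl made up 74.2%, 73.1%, 73.9% and 80.5% of the family per length across control, M8, M32 and M83. Pfkm, the muscle-type gene, made up 15.6%, 22.0%, 19.4% and 11.4% in the same order. Pfkp, the platelet-type gene, made up 10.2%, 4.83%, 6.65% and 8.09%. For M83 the order of Pfkm and Pfkp rests on the exon lengths, since raw counts gave 9.24% for Pfkm and 9.41% for Pfkp. In raw counts Pfkp held 11.9% of the family in control (exact 95% binomial interval 11.1% to 12.7%) and 5.78% in M8 (5.19% to 6.41%), intervals that cover counting error only. Among the lactate exporters, Slc16a1 supplied 70.6% of its pair with Slc16a3 in control, 70.9% in M32 and 70.4% in M83, but 83.2% in M8. Bnip3 and Bnip3l encode related mitophagy receptors of the outer mitochondrial membrane. Bnip3 held 51.2%, 36.4%, 43.0% and 54.3% of this pair per length across control, M8, M32 and M83. In raw counts it held the smaller share in every library, with 37.23%, 24.48%, 29.87% and 40.15%. Pfkfb4 outweighed Pfkfb3 in every library, with 79.7%, 78.8%, 73.6% and 85.1%.

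**Figure D1:**
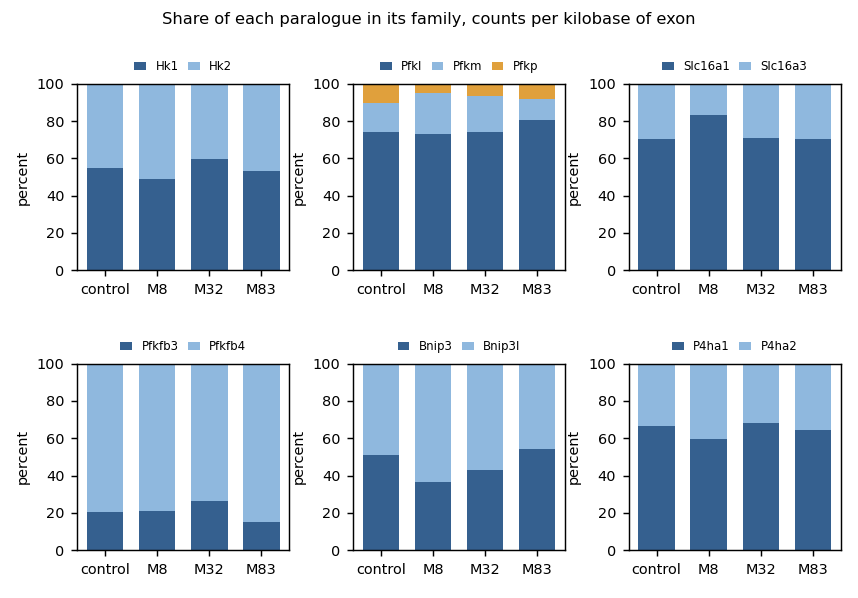
Share of each paralogue in its family, in percent of counts per kilobase of exon, for 6 families (panels) in the 4 libraries (bars, 1 library each). Slc16a1 takes 83.2% of its pair in M8 against 70.6% in control, and the Pfkp share is 10.2% in control and 4.83% in M8.

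The first comparison set the control against the lines as a group. Enzymes of the glycolytic trunk lay above every line in control, while 4 regulators and targets lay below every line. Of the 33 tested members 11 were higher in control than in all 3 lines (33.3%, against 21.3% of all 13576 tested genes), and 4 were lower in control than in all of them (12.1%, against 23.3%). The enzymes held 9 of the 11, namely Gpi1, Pfkl, Pfkp, Tpi1, Gapdh, Pgk1, Eno1, Pkm and Ldha, which is 9 of the 15 enzymes found by name. Among the 18 other tested members 2 lay above every line, Slc16a3 and Egln1, and the 4 below every line were Pfkfb3, Pfkfb4, Vegfa and Ndrg1. Near ties were counted as well, with Egln1 at 131.6 CPM in control and 131.5 in M83, and Vegfa at 105.8 and 106.6. These counts rest on 1 control library shared by all the comparisons.

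No member passed the test. With edgeR's quasi-likelihood F-test over all 13576 genes, 0 of 33 members were called at an adjusted p under 0.05, where 1 gene in the table was called (0.00737%), and each member had an adjusted p of 1. At an unadjusted p under 0.05 edgeR listed 1 of 33 members, Pfkp (3.03%), against 3.3% of all tested genes, so the members were near the share of all genes. Leaving out a line moved some fitted values. The log2 difference of Car12 was 0.62 with all lines, and 0.33, 0.31 and 1.045 without M8, M32 and M83 in turn. Pfkp was lower in the lines. At an unadjusted edgeR p under 0.05, 0.501% of all genes were lower and 2.8% higher. With 1 member listed, these shares by direction say nothing further about the members. DESeq2 called 0 members as well, against 0.318% of all genes, with a smallest adjusted p of 0.681, and listed 2, Pfkp and Slc16a3, at an unadjusted p under 0.05. The median fitted log2 difference, lines minus control, was -0.10 over the 33 members and 0.02 over all tested genes, with 12 members above 0 and 21 below. The fit has 2 residual degrees of freedom, and its p-values measure only the spread between different mutant lines, the lone control being assumed to vary like them.

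**Figure D2:**
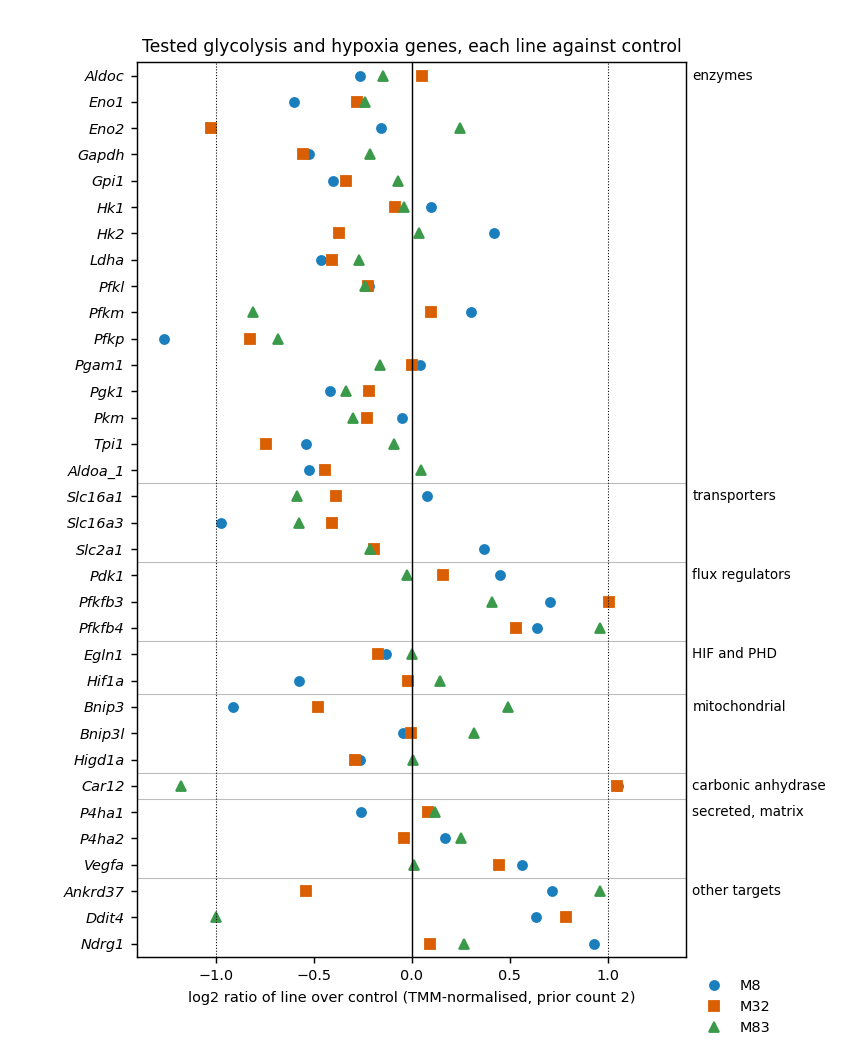
Log2 ratio of each line over control for the 33 tested members and the main Aldoa row (y axis, grouped by role), with 1 point per line and dotted lines at 2-fold. The 3 points of Pfkp lie left of 0 between -0.68 and -1.26 and those of Pfkfb3 and Pfkfb4 lie right of 0, while the points of Car12 lie on both sides.

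The abundant enzymes differed from control by less than 2-fold in every line. Gapdh, which oxidises glyceraldehyde phosphate, stood at 3013 CPM in control, and at 2097, 2052 and 2595 CPM across M8, M32 and M83. The lines averaged 2248 ± 301 CPM (SD, n = 3), and the fitted log2 difference was -0.42 (SE 0.213, edgeR adjusted p = 1). Control lay above all of them, with M83 nearest to it. Ldha, which makes lactate, had 2006 CPM in control and 1457, 1511 and 1667 CPM in the lines, a difference of -0.38 (SE 0.194). Eno1 had 1912 CPM in control and 1261, 1574 and 1619 CPM, a difference of -0.36 (SE 0.221). M8 was the lowest library for both genes, and the lines did not reach the control level in either. Pgk1, the first ATP-forming enzyme of the pathway, had 1588 CPM in control and 1191, 1365 and 1260 CPM, a difference of -0.32 (SE 0.197). Tpi1, triose phosphate isomerase, had 753 CPM in control and 519, 450 and 708 CPM, a difference of -0.43 (SE 0.287). That difference was -0.65 without M83 and -0.32 without M32. Gpi1, which isomerises glucose phosphate to fructose phosphate, had 507 CPM in control and 383, 402 and 483 CPM. For Tpi1 and Gpi1 the gap between control and M83 was small next to the spread of the lines.

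Pkm, which makes pyruvate, and Pgam1, phosphoglycerate mutase, were the steadiest of the abundant enzymes. Pkm had 2818 CPM in control and 2718, 2408 and 2290 CPM in the lines, and Pgam1 had 1005 CPM in control and 1036, 1006 and 898 CPM. Pfkl had 180 CPM in control and 155, 154 and 152 CPM, a fitted difference of -0.23 (SE 0.204), with the lines nearly equal to each other. The main Aldoa row, ENSMUSG00000030695, the aldolase of most tissues, had 685 CPM in control and 476, 504 and 706 CPM, so that M83 was above control. The other Aldoa row, ENSMUSG00000114515, had 68, 60, 61 and 34 counts, and Aldoc, the brain aldolase, had 9, 8, 10 and 9. The 15 enzymes found by name took 1.41%, 1.11%, 1.12% and 1.19% of scaled counts across control, M8, M32 and M83. Near-identical copies make the level of several enzymes uncertain, since 53.9% of the 50-base words of Pgk1, 36.2% of Pgam1, 26.0% of Eno1 and 25.1% of Gapdh occur in transcripts of other genes, and for Pkm the figure was 25.8%, led by the overlapping unclassified gene Gm49759.

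**Figure D3:**
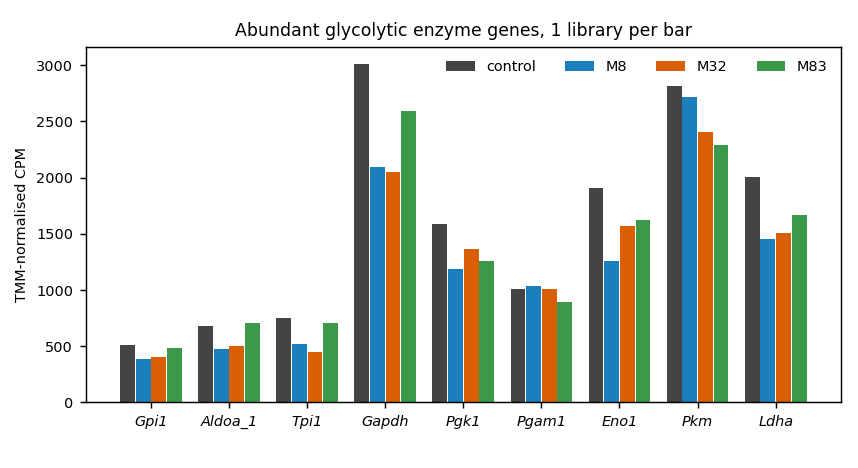
TMM-normalised CPM of 9 abundant enzyme genes (x axis, in pathway order) in control, M8, M32 and M83 (bars from 0, 1 library each, no error bar possible). Control stands highest for 7 of them, the exceptions being Pgam1 and the main Aldoa row.

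In M32 the tested members on chromosome 6 were low, as was that chromosome as a whole. The 4 tested members on chromosome 6, Hk2, Eno2, Tpi1 and Gapdh, were each lowest in M32, with log2 ratios to control of -0.37, -1.02, -0.74 and -0.55. The 652 tested genes of chromosome 6 centred on a log2 ratio of -0.24 (median) for M32, with 68.6% of them lower, against -0.05 in M8 and 0.07 in M83. Within 5 Mb of Gapdh (chromosome 6, 125161715 to 125166467, minus strand) the median of 92 other tested genes was -0.41 in M32, with 69 of them lower, and -0.05 and 0.08 in M8 and M83. Tpi1 and Eno2 lie in the same stretch. In M8, where these neighbours were nearly level, Gapdh was at -0.52 and Tpi1 at -0.54. Enzymes on other chromosomes were lower in M32 as well. With those on chromosome 6 included, 12 of the 14 enzymes with at least 50 counts were lower, against 5632 of 10848 genes. This was not particular to M32, with 10 of 14 lower in M8 (against 5212 of 10818 genes) and 12 of 14 in M83 (against 5553 of 10907). Ldha on chromosome 7 was at -0.41 in M32, with its neighbours at a median of -0.01. The part of the regional shift in the values of single genes was not tested. Without the members on chromosomes 6 and 12, 9 of 28 lay above every line in control, against 21.0% of all genes outside these chromosomes, and 4 of 28 below every line, against 24.1%.

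**Figure D4:**
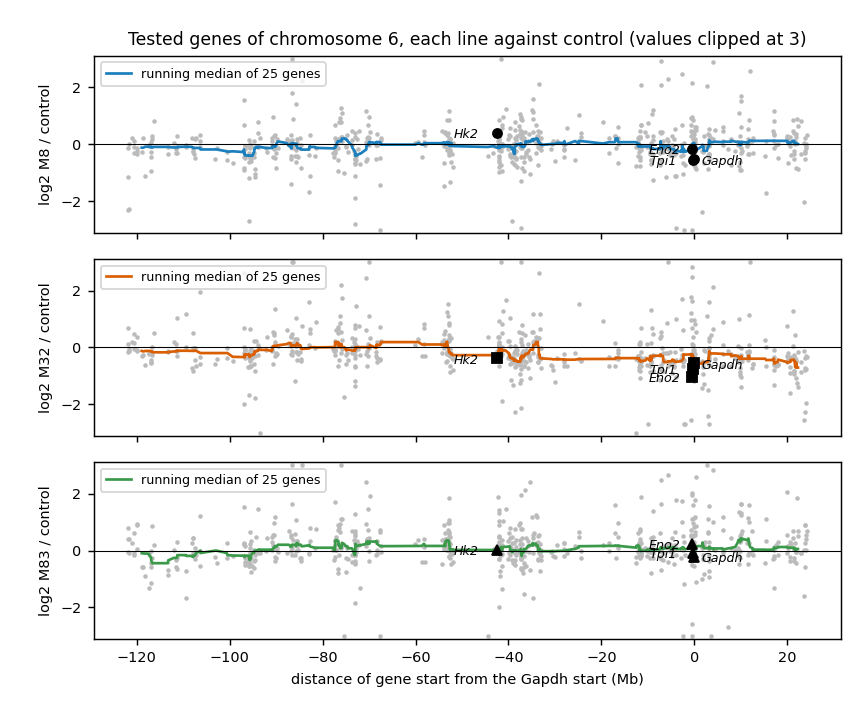
Log2 ratio to control (y axis) of the 652 tested genes of chromosome 6 by the distance of their start from that of Gapdh in Mb (x axis), 1 panel per line, with grey points for genes, a running median of 25 genes and black symbols for the members. In M32 the running median lies below 0 around Tpi1, Eno2 and Gapdh, where the 92 neighbours of Gapdh have a median of -0.41.

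Pfkp was the enzyme that differed most from control in the lines as a group. Its level was 28.3 CPM for control, then 11.8, 15.97 and 17.6 CPM for M8, M32 and M83, with the lines averaging 15.1 ± 3.01 CPM (SD, n = 3). All lines lay below control, with M83 at 1.496 times M8 (exact 95% interval 1.30 to 1.72). The fitted log2 difference was -0.91 (SE 0.298), with an edgeR quasi-likelihood p of 0.0203 and an adjusted p of 1, so the gene did not pass. Its 20 tested neighbours within 5 Mb on chromosome 13 had medians of 0.01, 0.03 and -0.09 in M8, M32 and M83, and 5.1% of its words occur in the overlapping gene Pitrm1. The other minor enzymes were set apart in single lines. Pfkm stood at 30.4, 37.5, 32.6 and 17.3 CPM across control, M8, M32 and M83, lowest in M83. Around Pfkm on chromosome 15, 88 of 132 neighbours were lower in M83, with a median of -0.30, against -0.81 for the gene itself. Eno2 had 18.97, 17.0, 9.29 and 22.5 CPM, lowest in M32. Hk2 had 103, 138, 79.6 and 106 CPM, highest in M8, and Hk1 stayed between 101.1 and 114.5 CPM.

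Lactate export and glucose uptake genes did not move together. Slc16a3, a lactate exporter that HIF induces, stood at 93.5, 47.6, 70.4 and 62.8 CPM across control, M8, M32 and M83, lowest in M8 and highest in control. Its fitted difference was -0.63 (SE 0.269, edgeR adjusted p = 1). Slc16a1, the broadly expressed monocarboxylate carrier, had 223 CPM in control and 235, 171 and 148 CPM, so that M8 lay above control and the other lines below it. Slc2a1 stood at 71.3, 92.1, 62.4 and 61.5 CPM in the same order. In M8 the uptake carrier Slc2a1 was thus highest of the 4 libraries. Of the lactate exporters Slc16a1, the larger part of its pair, was also highest in M8, and Slc16a3 was lowest there.

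Both sugar-phosphate regulators among the members lay below every line in control. Pfkfb3 and Pfkfb4 encode the enzymes that make and remove fructose bisphosphate, the allosteric activator of phosphofructokinase. Pfkfb3 was counted 52, 96, 113 and 79 times across control, M8, M32 and M83, which is 2.04 CPM against 3.37, 4.17 and 2.73 CPM. Pfkfb4 was counted 129, 225, 199 and 286 times, which is 5.06 CPM against 7.90, 7.34 and 9.89 CPM. Both were lowest in control, and the fitted differences were 0.75 (SE 0.519) for Pfkfb3 and 0.73 (SE 0.379) for Pfkfb4, each with an edgeR adjusted p of 1. Pdk1, which holds pyruvate back from the mitochondria by inhibiting pyruvate dehydrogenase, had 52.7 CPM in control and 72.1, 58.9 and 51.8 CPM.

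The factors and their hydroxylase varied less, apart from Hif1a in M8. Hif1a was counted 3712, 2776, 3889 and 4643 times across control, M8, M32 and M83. M8 was lowest, at a log2 ratio of -0.58, and the other lines lay on both sides of control. The gene lies on chromosome 12 (73901375 to 73947530, plus strand), where 67 of its 75 tested neighbours within 5 Mb had a log2 ratio below 0 for M8 (median -0.46). The part of that shift in the value of Hif1a was not tested. Without M8 the fitted difference turned from -0.12 to 0.06. Egln1 had 132 CPM in control and 120, 117 and 132 CPM in the lines, the narrowest range of all members with at least 50 counts, with the highest library only 1.12 times the lowest.

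Single lines were then compared with control by fold alone, as 1 library each allows no test. A member counted when its log2 ratio was at least 1 in size and the higher library had at least 50 counts, which 31 members reached. In M8, Car12 was higher (1 of 31, against 3.73% of all genes) and Pfkp lower (1 of 31, against 2.05%). In M32, Car12 and Pfkfb3 were higher (2 of 31, against 4.86%) and Eno2 lower (1 of 31, against 1.15%). In M83, 0 were higher (against 5.19%) and Car12 was lower (1 of 31, against 1.27%), while Ddit4 lay just inside the limit at a log2 ratio of -0.996. For M8, M32 and M83 the median log2 ratios of the members were -0.05, -0.19 and -0.07, against 0.01, -0.02 and -0.01 over all genes. With a fold of 1.5, M8 was higher in 5 (Car12, Ndrg1, Pfkfb3, Pfkfb4 and Ddit4, against 8.79%) and lower in 4 (Pfkp, Eno1, Slc16a3 and Bnip3, against 7.13%). At that fold M32 was higher in 3 (Car12, Pfkfb3 and Ddit4, against 10%) and lower in 3 (Pfkp, Tpi1 and Eno2, against 4.57%). M83 was higher in 1 (Pfkfb4, against 11%) and lower in 5 (Pfkm, Pfkp, Slc16a1, Car12 and Ddit4, against 6.59%).

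The lines were also set against each other by the same rule. M83 differed from M8 in Bnip3, which was higher (1 of 31, against 5.03%), and in Pfkm, Car12 and Ddit4, which were lower (3 of 31, against 2.96%). M83 differed from M32 in Eno2, which was higher (1 of 31, against 3.16%), and in Car12 and Ddit4, which were lower (2 of 31, against 3.15%). Between M32 and M8 it was 0 of 31 in both directions, against 3.67% higher and 2.13% lower in M32. With a fold of 1.5, M83 was higher than M8 in 2 (against 12.4%) and lower in 5 (against 10.7%), higher than M32 in 3 (against 8.49%) and lower in 4 (against 9.06%), and M32 was lower than M8 in 3 (against 7.41%) and higher in 0 (against 10%). Over the 4 libraries the highest was at least 2-fold over the lowest in 7 of 31 members (22.6%), against 17.3% of 11156 genes. The highest library was a median of 1.5 times the lowest over the members and 1.44 times over all genes. M8 was the highest library for 10 of the 33 tested members (against 27.2% of genes) and the lowest for 11 (against 26.4%). M32 was highest for 3 (against 23.1%) and lowest for 9 (against 22.3%), and M83 highest for 9 (against 28.4%) and lowest for 9 (against 27.4%). Control was lowest for 4, where 23.9% of genes have control lowest or tied for lowest.

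Car12, which encodes a carbonic anhydrase of the cell surface that helps to buffer exported acid, differed most between libraries. It was counted 118, 275, 261 and 58 times across control, M8, M32 and M83, which is 4.63, 9.66, 9.62 and 2.01 CPM. M8 and M32 lay together above control and M83 below it. The ratio to control was 2.09 in M8 (exact 95% interval 1.68 to 2.61) and 0.434 in M83 (0.311 to 0.599), and M8 stood at 4.82 times M83 (3.62 to 6.51), all for counting error only. Its 69 neighbours within 5 Mb on chromosome 9 had medians between -0.06 and -0.01. Ddit4, an inhibitor of mTORC signalling that many stresses induce, followed the same pattern with 16.4, 25.5, 28.4 and 8.20 CPM. M32 stood at 3.46 times M83 (2.99 to 4.02). A pair of mesenchymal markers, Col3a1 and Pdgfrb, was also higher in M8 and M32 than in control. Unlike Car12 and Ddit4, both were highest in M32 and not below control in M83. Col3a1, a fibrillar collagen gene, was counted 1748, 7748, 12998 and 2047 times in control, M8, M32 and M83, and Pdgfrb, a growth factor receptor gene, 424, 1250, 2341 and 574 times. They were singled out after their values were seen, and their part in the values of Car12 and Ddit4 was not tested. The highest of the 10 mesenchymal markers, Vim, was counted 115473, 124169, 129869 and 146659 times. Col1a1 (10970, 25288, 33405 and 32552 counts) and Pdgfra (137, 318, 196 and 339) were high in M83 as well. Fn1 had 35585, 29388, 40792 and 42142 counts, S100a4 13295, 14192, 11395 and 8586, and Col1a2 43464, 52481, 51697 and 43937. The list as a whole thus did not share 1 pattern.

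Bnip3 ran the other way, highest in M83 and lowest in M8. It stood at 22.6, 11.98, 16.2 and 31.9 CPM across control, M8, M32 and M83, so that M83 stood at 2.66 times M8 (2.35 to 3.02). Of the words of Bnip3 47.2% occur in other transcripts, led by those of the noncoding gene AC160336.1. The 84 tested neighbours of Bnip3 within 5 Mb on chromosome 7 had medians of -0.23, -0.18 and -0.24 in M8, M32 and M83. Of these neighbours 61, 54 and 50 were lower than control. The part of that shift in the value of Bnip3 was not tested. Bnip3l had 38.1, 36.9, 38.1 and 47.5 CPM, also highest in M83 though within a narrow range. Ankrd37, a HIF target of few transcripts, had only 20, 38, 14 and 46 counts in control, M8, M32 and M83, too few for the fold rule. Higd1a, a protein of the inner mitochondrial membrane, had 41.4, 34.4, 33.8 and 41.5 CPM.

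Ndrg1 and Vegfa, both widely used as readouts of HIF activity, were highest in M8. Ndrg1, a stress-responsive gene linked to differentiation, stood at 76.9, 147, 82.2 and 92.4 CPM across control, M8, M32 and M83. Control was lowest, but M32 was close to it, and without M8 the fitted difference fell from 0.48 (SE 0.365) to 0.18. Vegfa, the angiogenic growth factor gene, stood at 106, 156, 144 and 107 CPM, a fitted difference of 0.36 (SE 0.281) with M83 at the control level. Its 81 tested neighbours within 5 Mb on chromosome 17 had medians of 0.17, 0.15 and 0.12 in M8, M32 and M83. Of these neighbours 22, 23 and 27 were lower than control in the same order. The part of that shift in the value of Vegfa was not tested. The prolyl hydroxylases of collagen varied little. P4ha1 had 109, 91.1, 115 and 118 CPM and P4ha2 had 31.2, 35.1, 30.3 and 37.0 CPM in control, M8, M32 and M83.

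**Figure D5:**
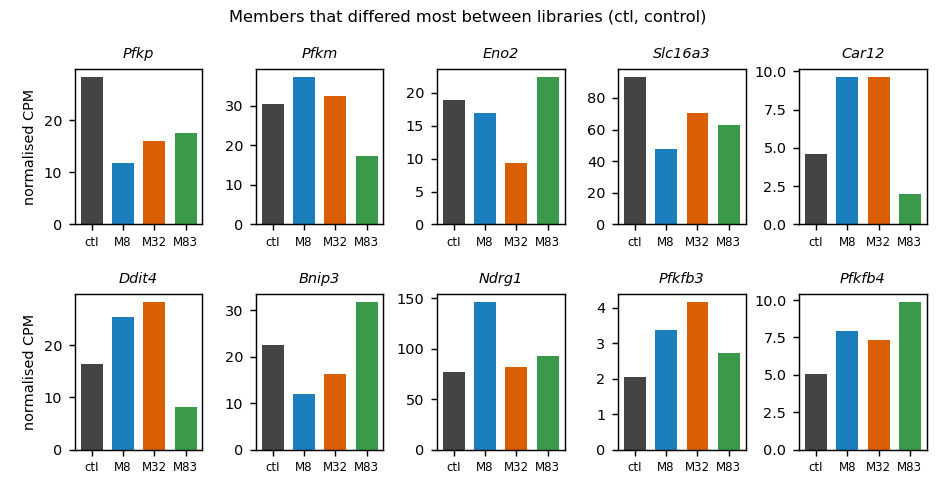
TMM-normalised CPM (y axis, from 0), 1 panel per gene and 1 bar per library. Shown are the 10 members with the highest ratio between libraries among those with at least 50 counts in a library. Car12 and Ddit4 are high in M8 and M32 and low in M83, Bnip3 is high in M83 and low in M8, and Pfkp and Slc16a3 are highest in control.

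Related genes outside the list gave 0 calls in edgeR. Of 20 other glycolytic and sugar transport isoenzymes 8 were tested, with Hk3 and Slc2a4 at 0 counts and Ldhb at 1 to 5. Slc2a6, a glucose transporter-like protein of lysosomal membranes, was counted 72, 338, 274 and 211 times across control, M8, M32 and M83. Its log2 ratio was 2.05, 1.81 and 1.35, its fitted difference 1.79, its edgeR p 0.00592 and its adjusted p 1. Among 29 tested further hypoxia targets the median fitted difference was -0.04, against 0.02 over all genes. Stc2, a secreted stress glycoprotein, had 147, 355, 447 and 248 counts, and Angptl4, an inhibitor of lipoprotein lipase, had 269, 342, 100 and 262. Tfrc, the transferrin receptor, had 9131, 8140, 6134 and 4300 counts, lowest in M83. Of the 13 tested HIF pathway components only Siah2, a ubiquitin ligase acting on prolyl hydroxylases, was past 2-fold, with 1221, 1547, 1069 and 682 counts. The median fitted difference was 0.14 over 12 genes of pyruvate entry into mitochondria, -0.19 over 8 genes of the pentose phosphate pathway, 0.09 over 7 of gluconeogenesis and glycogen and 0.17 over 5 sugar-responsive factors, against 0.02 over all genes. Of the 8 pentose phosphate genes 4, 6 and 8 were lower across M8, M32 and M83 than they were for control, where 5212 of 10818, 5632 of 10848 and 5553 of 10907 genes were lower.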

How the data were processed

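Poly(A) RNA was sequenced on an Illumina NextSeq from RNeasy Micro extracts and NEBNext Ultra II libraries, per the labels' protocols. The deposited values are raw counts, whole numbers without normalisation, on GRCm38 per the submitters' processing notes. The sources used here do not name the aligner, counting tool, annotation or strand setting, so reads of overlapping genes cannot be told apart. GENCODE vM21 holds 41434 of the 41457 row identifiers and gave positions and exon lengths. Counts were scaled by TMM (factors 0.986 to 1.03) and tested with edgeR 4.0.16 (R 4.3.3, filterByExpr, 13576 genes, Benjamini-Hochberg adjustment over all of them). DESeq2 1.42.0 was the alternative tool. Log2 ratios of 2 libraries used a prior count of 2 and have no test. A count of 0 allows 3 counts, and intervals are exact binomial at 95%. The labels do not say whether samples are separate cultures. On data simulated for lines against control (13369 genes), edgeR recovered 58.3% of genes changed 4-fold and 75.5% changed 8-fold, with 6 false calls. Smaller changes, such as the fitted log2 difference of -0.91 for Pfkp, were not simulated. The recovery of changes of the size seen in the members is therefore not known.

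The members and lists were chosen with earlier results of these data known. All members are accounted for, and those past 2-fold in a pair of libraries, those with an edgeR p under 0.05 and the paralogue families are described in full. Of the other lists, up to 3 genes past 2-fold were named. Windows of 5 Mb, the chromosome 6 values and genes named beyond this rule were chosen after the values were seen.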

Additional observations from a re-analysis of the deposited data

How the results depend on the processing

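The number of members called was 0 under each alternative: DESeq2, RLE factors, library size alone, no filter on low counts, at least 1 CPM in every library, and leaving out each line in turn (0 to 0). The number of members listed at an unadjusted p under 0.05 was 1 to 5 over these settings, with 2.62% to 4.1% of all genes. It was highest without M83. Car12 and Ddit4 lay below control in M83 and above it in M8 and M32. Leaving out M83 therefore narrows the spread of the lines for these genes by itself. Of 152 fitted log2 differences over 19 genes and 8 alternatives, 151 kept their sign. Hif1a, at -0.12 with all lines, was 0.06291 without M8, the highest, and -0.284 without M83, the lowest, when a line was left out. The 19 genes were picked by hand, and members with a fit near 0, such as Hk1 (-0.006) and P4ha1 (-0.009), were not among them. All alternatives that keep every line refit the same libraries. Agreement in sign was therefore largely given in advance. The 11 members above every line in control became 12 to 16 when a line was left out, with 28.0% to 32.8% of all genes, and the 4 members below every line became 5 to 9, with 31.2% to 33.2%. This alternative and that without chromosomes 6 and 12 were chosen after seeing the data. Fewer lines make the condition easier to meet. With a fold of 1.5 in place of 2, the members were 5 higher and 4 lower in M8 against control, 3 lower in M32 and 1 higher and 5 lower in M83. At that fold 3 were lower in M32 against M8, 2 higher and 5 lower in M83 against M8, and 3 higher and 4 lower in M83 against M32. With library size alone 1 member was higher in M83 against control (5.63% of all genes) and 2 in M83 against M32 (3.55%). Under that setting 10 members lay above every line in control (19.1% of all genes) and 5 below every line (24.9%). With a prior count of 0.5, 2 were lower in M83 against control (1.35%). With at least 200 counts, 1 was higher in M32 (2.84%) and 0 were lower in M83 (0.755%), since Pfkfb3 and Car12 have too few counts. DESeq2 called 40 genes in the whole table where edgeR called 1, and the cause was not tested. No paired analysis was possible because the samples carry no shared replicate numbers in the labels. A lone control and 1 library per line limit every value here, and low counts limit Car9, Egln3, Adm, Slc2a3, Epas1, Aldoc and Ankrd37 the most.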
